A study of Homo sapiens with 24 samples.

Results

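DB and K422 are established lines of germinal centre B-cell-like diffuse large B-cell lymphoma (GCB-DLBCL), and both express FOXP1. The data described here are the 12 of 24 arrays in the series that were made from them, 6 from each line, chosen by the cell line named in the labels. Cells were nucleofected with 1 µM of a FOXP1-targeting siRNA, siFOXP1_308 or siFOXP1_309, or with a negative control siRNA (siCtrl), and were harvested after 48 h. Each line had 3 independent experiments (replicates 1 to 3) with each siRNA, and the remaining 12 arrays hold the same design in HBL-1 and OCI-Ly3, lines of the activated B-cell-like subtype (ABC-DLBCL). On every array RNA of FOXP1-silenced cells, labelled with Cy3, was hybridised together with RNA of siCtrl cells of the same line, labelled with Cy5. Values are log2(siFOXP1/siCtrl), so a gene with a positive value was higher on FOXP1 silencing. The question addressed is which responses to FOXP1 silencing the 2 GCB-DLBCL lines shared, and in which they differed or went in opposite directions.

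FOXP1 is a forkhead transcription factor of B cells that can repress or activate its target genes. It is needed early in B-cell development and is normally low in germinal centre B cells. These cells are recognised by genes such as BCL6, MME (CD10) and MYBL1 (A-MYB), and in lymphoma strong FOXP1 expression is best known from the ABC subtype.

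Several features of the arrays bear on every value. The siFOXP1 RNA carried the same dye throughout, so a dye bias of a probe has the same sign in both lines and cannot be told apart from a shared response, whereas a constant bias cancels in the difference between the lines. DB was scanned in 1 session and K422 in another, with different versions of the scanner software, so line and scan session cannot be told apart. Both siRNA arrays of a replicate number name the same control RNA in the labels, and their deviations from the group means ran together in each of the 3 replicates of each line (correlation over genes from 0.285 to 0.618). Arrays of 1 number are therefore not independent. The scanner software marks each channel of a spot as well above background or not, and a spot with such a mark in either channel is called detected here. Between 57.8% and 61.7% of spots were detected on the arrays of DB and between 62.5% and 64.8% on those of K422. Precision is limited by there being 6 arrays per line. A gene entered the tests when its brightest probe was detected on at least 4 of 6 arrays of each line, which left 15997 of 30142 gene names. It was called when the limma adjusted p was below 0.05 and the log2 value was at least 0.5 in size (1.41-fold). Of 10 B-lineage markers, such as PAX5, all 10 passed this filter, against 2 of 7 T-cell, 3 of 7 myeloid and 1 of 6 stromal markers.

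The third experiment of DB stood apart. The spread of log2 values over spots was 0.565 on the array of siFOXP1_308 replicate 3, against 0.385 to 0.450 on the other 5 arrays of DB. Replicate 2 of DB stood apart on stress-response genes, described further on. Counts are given with and without these experiments where they rest on them.

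FOXP1 itself was lower on all 12 arrays. Its probe (A_23_P155257) lies at chr3:71091098-71091157 of hg18. In DB the log2 values with siFOXP1_308 were -0.95, -1.61 and -1.34 in replicates 1 to 3, and with siFOXP1_309 they were -2.71, -2.69 and -2.69. In K422 they were -0.95, -0.96 and -0.83 with siFOXP1_308, and -1.80, -1.79 and -1.70 with siFOXP1_309. The fall was larger with siFOXP1_309 than with siFOXP1_308 in every experiment of both lines, and the arrays of the lines overlapped. The mean was -2.00 ± 0.79 (SD, n = 6 arrays) in DB and -1.34 ± 0.47 in K422, with limma adjusted p of 1.33e-12 and 3.69e-10. The transcript was thus less reduced in K422, by 0.66 on the log2 scale (adjusted p 0.000716, and 0.00507 with the replicate number as a block). This difference was 0.39 with siFOXP1_308 alone, below the limit for a call. Bulk RNA does not separate fewer cells that carry a transcript from less transcript in each cell, here or for any gene below.

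With no replicate left out, in the fit that also held the arrays of HBL-1 and OCI-Ly3, more genes were called in K422 than in DB. In DB 227 genes (1.42% of those tested) rose and 108 (0.675%) fell on FOXP1 silencing, and in K422 365 (2.28%) rose and 321 (2.01%) fell. Both directions together came to 335 genes (2.09%) in DB and 686 (4.29%) in K422. The median over all tested genes was 0.01 in DB and 0.00 in K422. The spread of the mean response over genes (SD) was 0.218 in DB and 0.267 in K422. Without DB replicate 3 the counts were 384 and 315 in DB and 371 and 331 in K422, so that the smaller number of called genes in DB was not seen without that experiment. Across genes, which are not independent replicates and share the probes and their dye bias, the mean responses of the lines had a Pearson correlation of 0.483 and a Spearman correlation of 0.452.

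**Figure D1:**
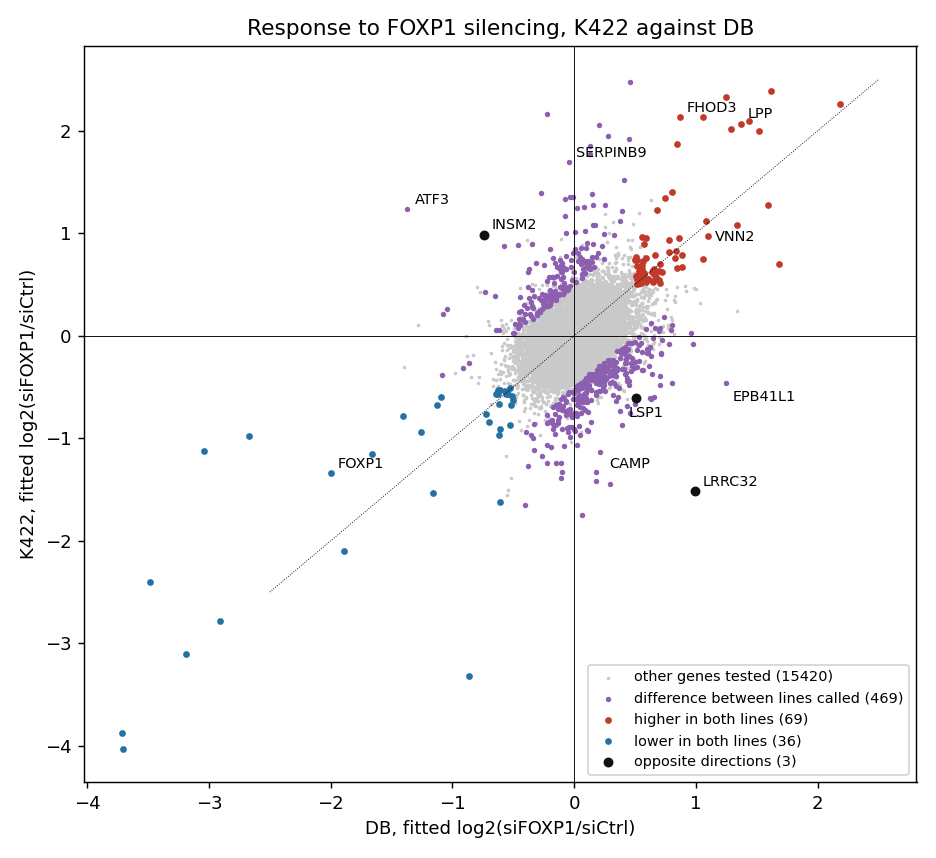
Mean log2(siFOXP1/siCtrl) of each of 15997 tested genes in DB (x axis) and in K422 (y axis), each over 6 arrays. Coloured points are the 69 genes called higher in both lines, the 36 called lower in both, the 3 called in opposite directions and the other genes whose difference was called. The spread over genes is 0.218 in DB and 0.267 in K422, and some shared genes lie far from the diagonal, among them LPP and FHOD3.

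The lines shared 69 genes that rose (0.431% of genes tested) and 36 that fell (0.225%). The 69 were 30.4% of the genes that rose in DB and 18.9% of those that rose in K422, and the 36 were 33.3% and 11.2% of those that fell. Among the genes that rose in both, LPP, a cytoskeletal adaptor of focal adhesions, NEIL1, a DNA glycosylase of base excision repair, and VNN2, a membrane-anchored enzyme of the vanin family, are counted among GCB-DLBCL genes. The median of the 69 was 0.66 in DB and 0.70 in K422, and that of the 36 was -0.67 and -0.81, against medians near 0 over all genes.

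LPP gave the highest shared rise of a RefSeq-named gene by the smaller of its 2 line values. In DB its log2 values were 0.73, 1.12 and 1.42 with siFOXP1_308 and 1.34, 1.87 and 1.71 with siFOXP1_309. In K422 they were 1.94, 2.07 and 1.94, and 2.04, 2.30 and 2.11. All arrays of K422 lay above all arrays of DB. The means were 1.37 ± 0.41 (SD, n = 6) and 2.07 ± 0.13, with adjusted p of 1.16e-08 and 9.63e-12, and LPP rose more in K422 than in DB by 0.70 (adjusted p 0.00223, and 0.0140 with the replicate block). In HBL-1 and OCI-Ly3 LPP averaged 0.24 and 0.54.

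VNN2 ran from 0.70 to 1.91 in DB, with a median of 1.04, and from 0.82 to 1.13 in K422, with a median of 0.99. The array of siFOXP1_308 replicate 3 gave the 1.91 and the other arrays of DB lay within 0.704 to 1.16, so the lines overlapped. The means were 1.10 ± 0.45 and 0.98 ± 0.12, with adjusted p of 1.15e-06 and 1.40e-06, and the difference of -0.12 did not pass the test (adjusted p 0.640). NEIL1 ran from 0.30 to 2.05 in DB and from 0.50 to 1.92 in K422, with medians of 0.59 and 1.54. Its means were 0.80 ± 0.63 and 1.40 ± 0.50, with adjusted p of 0.00290 and 9.73e-06. The 2.05 again came from siFOXP1_308 replicate 3, and without DB replicate 3 NEIL1 was 0.49 in DB, just under the limit, and differed from K422 by 0.91 (adjusted p 0.00534).

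The other largest shared rises, among RefSeq-named genes with 1 sign on all 12 arrays and both channels well above background, were in genes of different roles. FOXO4, a forkhead transcription factor of the FOXO family, averaged 0.84 ± 0.44 in DB and 0.83 ± 0.40 in K422. PTK2B, the tyrosine kinase PYK2, averaged 0.70 ± 0.18 and 0.70 ± 0.16, from 0.35 to 0.82 in DB and from 0.41 to 0.87 in K422, so the lines overlapped fully. TOM1, an adaptor of endosomal trafficking, averaged 0.66 ± 0.20 and 0.79 ± 0.28, and IQCN 0.82 ± 0.54 and 0.75 ± 0.36. ZPBP2, a protein of the sperm acrosome, averaged 0.84 ± 0.37 and 1.87 ± 0.29, with no overlap between the arrays of the lines, and differed by 1.03 (adjusted p 0.0117, and 0.0475 with the replicate block). Without DB replicate 1 this difference was 0.91 and did not pass (adjusted p 0.0523). AEBP1, a secreted carboxypeptidase-like protein of the extracellular matrix, averaged 0.68 ± 0.41 and 1.22 ± 0.33, and its call in DB was lost with the replicate block (adjusted p 0.101), and without DB replicate 1 (0.55, adjusted p 0.126) or replicate 3 (0.68, adjusted p 0.0529). CLGN, a testis chaperone of the endoplasmic reticulum, averaged 1.33 ± 1.59 in DB, where a single array reached 4.35, and 1.08 ± 0.17 in K422, with 0.79 as the lowest array. Without DB replicate 3 CLGN was 0.47 in DB (adjusted p 0.0515), and its K422 call was lost without any 1 of the K422 replicates (adjusted p from 0.0706 to 0.102). IQCN was not called in K422 without K422 replicate 1 (0.58, adjusted p 0.0543).

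Among shared falls, FOXP1 was the largest that was measured above background in both channels. ITGA4, the alpha-4 integrin chain with which lymphocytes bind VCAM-1, ran from -1.01 to -0.36 in DB, with a median of -0.63, and from -1.04 to -0.34 in K422, with a median of -0.49. Its means were -0.64 ± 0.26 (adjusted p 0.000846) and -0.56 ± 0.25 (adjusted p 0.00132), and the lines overlapped. In OCI-Ly3 it averaged 0.13. Its HBL-1 mean was exactly 0 and is not read as a lack of response, since detection in the ABC-DLBCL lines was not required. FGR, a Src-family kinase, averaged -0.62 ± 0.45 in DB and -0.67 ± 0.11 in K422, against 0.34 in HBL-1 and 0.52 in OCI-Ly3. PRSS36, a serine protease, was the tightest of these genes, from -0.87 to -0.54 in DB and from -0.65 to -0.48 in K422 (means -0.63 ± 0.13 and -0.57 ± 0.07). AP1S2, a subunit of the AP-1 clathrin adaptor, averaged -0.64 and -0.57, and SNX6, a sorting nexin of the retromer pathway, -0.63 and -0.52. TEX19, a germ-cell gene, averaged -0.72 and -0.76, and CNGB1, a subunit of cyclic nucleotide-gated channels, -1.26 and -0.94.

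Some of these falls rest on 1 experiment. Without DB replicate 2, TEX19 was -0.34 and FGR -0.42 in DB, both below the limit. Without K422 replicate 1 ITGA4 was -0.46 in K422, and without K422 replicate 3 SNX6 was -0.46, again below the limit. The K422 call of CNGB1 was lost with the replicate block (adjusted p 0.0702) and without any 1 of the K422 replicates (adjusted p from 0.0514 to 0.114).

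**Figure D2:**
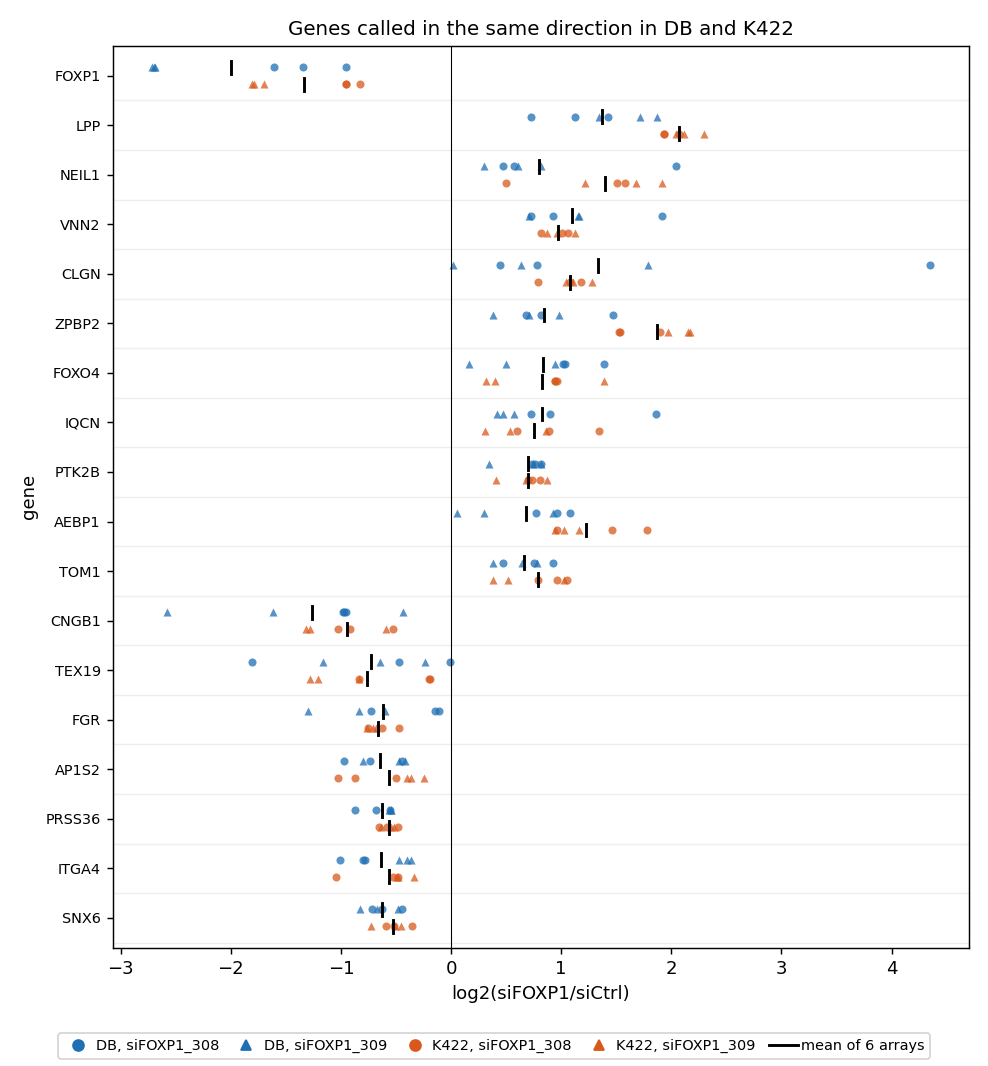
Log2(siFOXP1/siCtrl) of FOXP1 and of the 17 other RefSeq-named genes chosen as shared, 1 symbol per array and a line for each mean (circles siFOXP1_308, triangles siFOXP1_309). The choice required 1 sign on all 12 arrays, and 1 array of DB lies far above the others for CLGN, at 4.35.

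Of the 69 shared rises 48 had 1 sign on all 12 arrays, 53 were measured above background in both channels, and 41 met both criteria. Of the 36 shared falls these counts were 26, 19 and 12. All 5 shared falls of -2 or below in both lines were entries with no array of at least one line in which the siFOXP1 channel was well above background, so the fall is only bounded there and no fold is given. In the same way 9 of the 69 shared rises had no array of at least one line with the siCtrl channel well above background. With background correction by normexp and loess normalization, which shrinks the ratios of dim probes, 16 of the 69 and 3 of the 36 were called again. Among the shared genes described above, LPP, NEIL1, VNN2, CLGN, PRSS36 and FOXP1 remained. FOXO4, PTK2B, TOM1, IQCN, AEBP1, ZPBP2, ITGA4, FGR, AP1S2, SNX6, TEX19 and CNGB1 kept their direction and lost the call in DB, K422 or both. Of the 69 rises, 41 were also called in HBL-1, 30 in OCI-Ly3, 22 in all 4 lines and 20 in neither ABC-DLBCL line. Of the 36 falls, 20 were called in all 4 lines and 8 in neither ABC-DLBCL line. Genes entered the tests by detection in DB and K422 alone. A gene without a call in an ABC-DLBCL line may therefore not have been detected there.

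The forkhead core motif TGTTTAC was searched on both strands in the 250 bases before the annotated starts of the shared genes, in RefSeq windows of GRCh38.p14. It was in 3 of the 38 shared rises with a window (7.89%) and in 1 of the 18 shared falls (5.56%), against 2.86% of all tested genes with a window and 2.98% of 35116 windows. Among genes whose difference was called it was in 6 of 128 (4.69%) of those higher in K422 and in 6 of 130 (4.62%) of those lower. The 3 shared rises were LPP, RASSF6, a member of the Ras association domain family, and JAML, a junctional adhesion molecule of leukocytes, which averaged 0.56 and 0.96 (RASSF6) and 0.51 and 0.77 (JAML) in DB and K422. They are shown because they rose in both lines and hold a forkhead-type sequence near an annotated start, with the motif or its reverse complement GTAAACA in capitals. A match is a description of the letters and shows no binding. The stretches lie at chr3:188212492-188212598 on the plus strand (LPP, 1 of its 7 starts), chr4:73620632-73620700 on the minus strand (RASSF6) and chr11:118212947-118213041 on the minus strand (JAML).
LPP: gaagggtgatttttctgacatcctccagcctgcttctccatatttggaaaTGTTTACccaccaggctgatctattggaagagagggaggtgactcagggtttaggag
RASSF6: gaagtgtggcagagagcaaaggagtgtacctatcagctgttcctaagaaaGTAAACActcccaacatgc
JAML: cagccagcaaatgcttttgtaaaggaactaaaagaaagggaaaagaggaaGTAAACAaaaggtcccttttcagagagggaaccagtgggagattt

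The K422 and DB responses differed in 487 genes (3.04% of those tested), with 194 (1.21%) higher in K422 and 293 (1.83%) lower in K422. Among RefSeq-named genes whose siFOXP1 and siCtrl channels were each well above background on at least 4 of 6 arrays per line, the largest differences were in ATF3, SERPINB9, INSM2, SLC41A1 and TNFRSF21, higher in K422, and in EPB41L1, CAMP and LSP1, lower in K422. Of the 194, 95 rose in K422 without a call in DB, 10 fell in DB without a call in K422, 8 rose in both lines and more in K422, and 76 were called in neither line on its own. Of the 293, 124 fell in K422 alone, 37 rose in DB alone, and 127 were called in neither. The fitted values had opposite signs in 347 of the 487 genes. Measured above background in both channels were 389, and in 196 the 6 arrays of 1 line did not overlap the 6 of the other, against 643 such genes (4.02%) among all tested.

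These counts depend on how arrays of an experiment are combined. With the replicate number as a block 114 genes were higher and 161 lower in K422, and all 275 were among the 487. With the 2 siRNAs of an experiment averaged, which leaves 3 values per line, the counts were 87 and 119. They were 544 and 657 without DB replicate 3. The number lower in K422 was 193 without DB replicate 2 and 173 without K422 replicate 3. Normexp with loess gave 97 and 88, a larger share of genes higher in K422, and normexp with median centring gave 16 and 20.

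SERPINB9, an inhibitor of granzyme B, differed most after ATF3 among the named genes higher in K422, and its difference was called whichever replicate was left out. Its values in DB were 0.27, -0.13 and 0.23 with siFOXP1_308, and -0.08, -0.31 and -0.22 with siFOXP1_309. In K422 they were 1.77, 1.88 and 1.80, and 1.56, 1.72 and 1.43. The 2 sets of arrays did not overlap, and the difference was 1.73 (limma adjusted p 2.50e-11, and 3.25e-10 with the replicate block). In HBL-1 and OCI-Ly3 SERPINB9 averaged 0.21 and 0.13.

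SLC41A1, a magnesium transporter, ran from -0.08 to 0.42 in DB, with a median of 0.11, and from 1.54 to 2.61 in K422, with a median of 1.73 (difference 1.72, adjusted p 1.97e-07). TNFRSF21, the death receptor DR6, ran from -0.81 to 0.63 in DB and from 1.59 to 1.94 in K422, with medians of 0.25 and 1.77 (difference 1.64, adjusted p 4.18e-07). C3orf52 had medians of -0.07 and 1.51 (difference 1.41, adjusted p 2.24e-05). None of these 3 was called in DB, and the arrays of the lines did not overlap. EEIG1 (FAM102A) ran from -0.08 to 0.98 in DB and from 1.33 to 3.07 in K422, and differed by 1.47 (adjusted p 0.000976). FHOD3, a formin that assembles actin filaments, averaged 0.86 ± 0.87 in DB and 2.13 ± 0.37 in K422, a rise in both lines with overlapping arrays. Its difference was 1.26 (adjusted p 0.00769, and 0.0387 with the replicate block). Without DB replicate 2 the DB value of FHOD3 was 0.72 and did not pass (adjusted p 0.0531). ADA, adenosine deaminase of purine salvage, averaged -0.04 ± 0.16 in DB and 1.35 ± 0.87 in K422, where siFOXP1_309 replicate 1 gave -0.13 and the other 5 arrays 1.01 to 2.32 (difference 1.39, adjusted p 0.000587).

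TAGAP, a GTPase-activating protein of activated lymphocytes, and ATF3, a transcription factor of the stress response, were spread widely in DB. TAGAP averaged -0.58 ± 1.06 in DB, from -2.49 to 0.38, and rose in K422, from 0.44 to 1.10 (mean 0.88 ± 0.23), with a difference of 1.45 (adjusted p 0.00538). Without DB replicate 3 TAGAP fell in DB (-1.04, adjusted p 0.000466). ATF3 in DB was -0.48, -5.43 and 1.29 with siFOXP1_308 and -0.63, -3.13 and 0.16 with siFOXP1_309, and in K422 it ran from 0.30 to 1.98. The 2 lowest values in DB both came from replicate 2. The difference of 2.60 had an adjusted p of 0.0384 and did not pass with the replicate block (adjusted p 0.0895) or without DB replicate 2 (1.15, adjusted p 0.0727), K422 replicate 2 (2.50, adjusted p 0.108) or K422 replicate 3 (2.28, adjusted p 0.169).

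The named genes lower in K422 were of different roles. EPB41L1, a protein 4.1 family member that links membrane proteins to actin, rose in DB on all 6 arrays, from 0.68 to 1.64 (mean 1.25 ± 0.36, adjusted p 3.75e-05), and ran from -1.08 to 0.56 in K422 (mean -0.46 ± 0.65). K422 replicate 1 held both values above 0, and without it EPB41L1 fell in K422 (-0.86, adjusted p 0.000228). The difference was -1.71 (adjusted p 0.000150). CAMP, the cathelicidin antimicrobial peptide, had medians of 0.18 in DB and -1.16 in K422 (difference -1.34, adjusted p 1.19e-07). LSP1, an actin-binding protein of leukocytes, ran from -0.28 to 0.74 in DB and from -1.21 to -0.65 in K422 (difference -1.26, adjusted p 1.25e-05). The only negative DB value of LSP1 came from siFOXP1_308 replicate 3, and without DB replicate 3 LSP1 rose in DB (0.55, adjusted p 0.000407) and so went in opposite directions in the 2 lines.

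TEAD4, the transcription factor of the Hippo pathway, had medians of -0.09 in DB and -1.18 in K422 (difference -1.10, adjusted p 1.19e-07). TMEM65, a mitochondrial membrane protein, averaged -0.10 ± 0.28 and -1.33 ± 0.11, STMN3, a stathmin that binds tubulin, 0.02 ± 0.26 and -1.07 ± 0.27, PLXNA1, a semaphorin receptor, 0.11 ± 0.23 and -0.93 ± 0.53, and PODXL, a sialomucin, 0.10 ± 0.25 and -0.92 ± 0.40. All 4 fell in K422 without a call in DB. FMOD, a matrix proteoglycan, averaged 0.50 ± 0.43 and -0.67 ± 0.19 and was just short of a call in DB. It passed there without DB replicate 1 (0.59) or replicate 2 (0.60). CPLX3, a complexin of vesicle release, averaged 0.71 ± 0.53 and -0.39 ± 0.19, and its difference of -1.10 had an adjusted p of 0.0513 with the replicate block.

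The arrays of the lines did not overlap for any of the 10 largest differences in each direction, chosen under the same limits, other than ATF3, ADA and FHOD3. With normexp and loess the differences of SERPINB9, SLC41A1, TNFRSF21, EEIG1, TAGAP, ADA, ATF3, EPB41L1, CAMP, LSP1, FMOD, CPLX3, STMN3, PLXNA1 and PODXL were called again. Those of INSM2, C3orf52, FHOD3, TMEM65 and TEAD4 kept their sign and were below the limit.

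**Figure D3:**
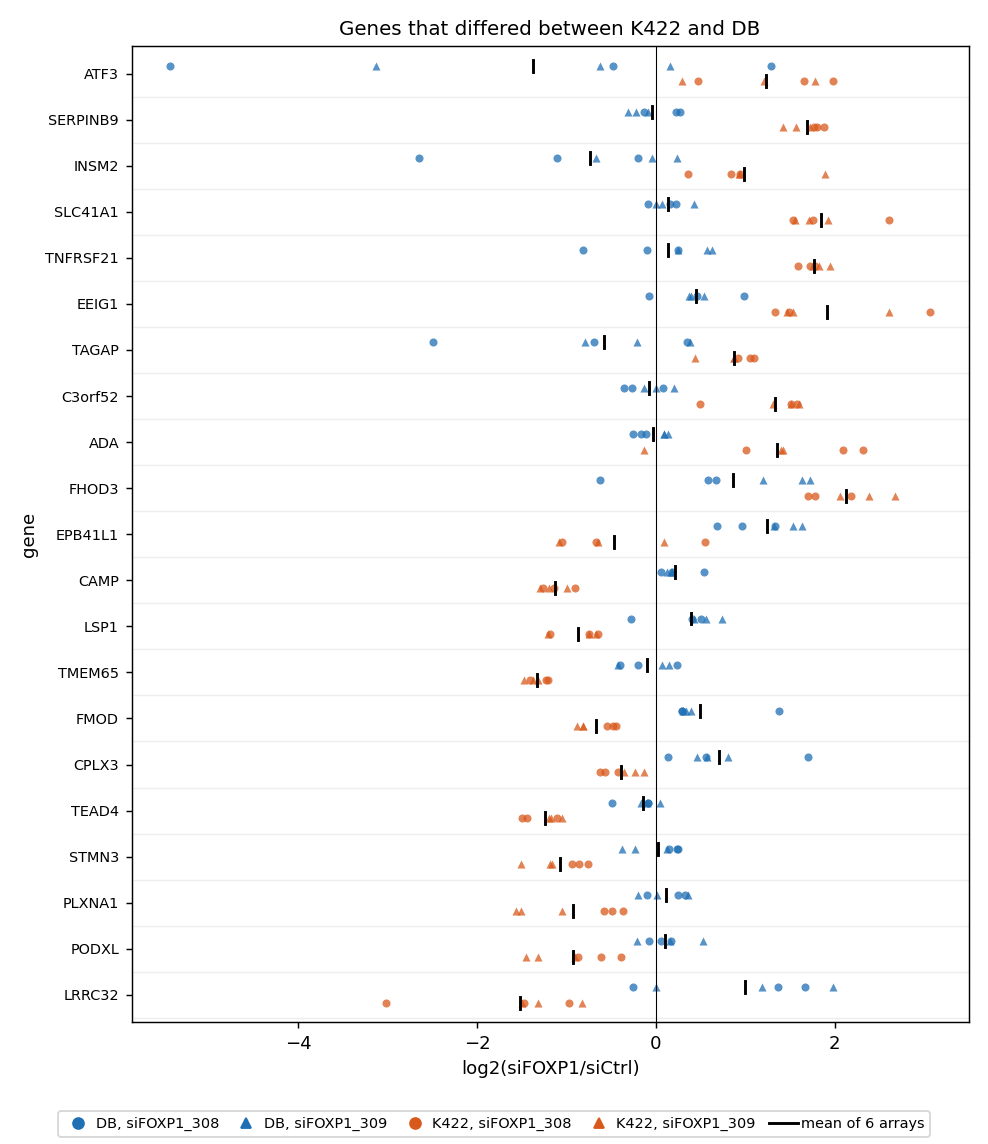
Log2(siFOXP1/siCtrl) on each of the 12 arrays for the 20 genes with the largest differences among RefSeq-named genes measured in both channels, and for LRRC32 (circles siFOXP1_308, triangles siFOXP1_309, a line for each mean). The DB and K422 symbols are separated for all genes except ATF3, ADA and FHOD3, and ATF3 spans -5.43 to 1.29 in DB.

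HBL-1 was scanned with K422 and OCI-Ly3 with DB, so HBL-1 minus OCI-Ly3 crosses the same 2 sessions. Of 340 called differences also measured in those lines, 234 had the same sign there and 45 were past the limit of 0.5. Over all tested genes K422 minus DB and HBL-1 minus OCI-Ly3 had a Pearson correlation of 0.272. The share of equal sign over all genes was not computed, so the 234 have no background to be set against. The median HBL-1 minus OCI-Ly3 value was 0.12 where K422 was higher, against 0.61 for K422 minus DB, and -0.22 where K422 was lower, against -0.63. The part of the scan session in these differences was not tested. In the siCtrl channel the genes higher in K422 had a median level difference (K422 minus DB) of -0.37 and those lower in K422 one of 0.21, against 0.16 over all tested genes, and the part of the starting level was not tested either.

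With no replicate left out 3 entries were called in opposite directions (0.0188% of those tested), namely LRRC32, INSM2 and the unnamed probe A_24_P136415. This fit also held the arrays of HBL-1 and OCI-Ly3. Fitted to the 12 arrays of DB and K422 alone, 1 entry was higher in DB and lower in K422 and 0 the other way. Without DB replicate 3 these counts were 10 higher in DB and lower in K422 and 14 the other way. LRRC32 (GARP), a surface protein that holds latent TGF-beta, was 1.67, 1.37 and -0.25 in DB with siFOXP1_308, and 1.98, 1.19 and 0.01 with siFOXP1_309. In K422 it was -0.97, -1.47 and -3.01, and -0.82, -1.32 and -1.50. Every K422 array lay below every DB array, and replicate 3 of DB lay near 0 with both siRNAs. The means were 0.99 ± 0.91 (adjusted p 0.00872) and -1.51 ± 0.78 (adjusted p 0.000185), with a difference of -2.51 (adjusted p 0.000279, and 0.00105 with the replicate block, under which LRRC32 was the only gene called in opposite directions). In DB 2 of 6 arrays had its siCtrl channel well above background. Its DB call was lost without DB replicate 1 (0.58, adjusted p 0.160) or replicate 2 (0.85, adjusted p 0.0828).

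INSM2, a zinc finger transcription factor of neuroendocrine cells, ran from -2.65 to 0.24 in DB, with a median of -0.44, and from 0.36 to 1.89 in K422, with a median of 0.94. The arrays did not overlap, and the difference was 1.72 (adjusted p 0.00165, and 0.0174 with the replicate block). The fall in DB (-0.74, adjusted p 0.0191) did not pass with the replicate block (adjusted p 0.0806) or without DB replicate 2 (-0.28, adjusted p 0.334). The probe A_24_P136415 averaged 0.50 ± 0.77 in DB and -0.61 ± 0.37 in K422 (difference -1.11, adjusted p 0.00891). Its DB value rests on replicate 1, at 0.75 and 1.97, without which it was 0.08. With the replicate block its DB call was lost (adjusted p 0.104), and its calls also failed without any 1 of the K422 replicates, where adjusted p in DB ran from 0.0523 to 0.0580. With normexp and loess no entry was called in opposite directions, and LRRC32 kept its fall in K422 and its difference.

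More of the listed germinal centre genes rose in K422 than in DB. Of 28 genes listed, 26 were tested. In DB 3 rose (1.42% of all tested genes did) and in K422 9 rose (2.28%). The methods' t-test called 1 higher in DB and 10 in K422. By limma and by the methods' t-test none fell in either line (1 in each at an unadjusted limma p below 0.05). The list median was 0.06 in DB and 0.33 in K422, against 0.01 and 0.00 over all genes, and values were positive in 18 and 24 of the 26. On single arrays the list median lay between 0.05 and 0.24 in DB and between 0.17 and 0.47 in K422. LPP, NEIL1 and VNN2, which the study names, are on the list and are the 3 that rose in both lines, so for these the list is not independent of the study. The difference was called in 6 members, all higher in K422 (1.21% of all tested genes were). The number was the same with the replicate block and with normexp and loess, and 5 or 6 when 1 replicate was left out. It was 4 with siFOXP1_308 alone, 1 with siFOXP1_309 alone and 3 with the methods' t-test. With normexp and median centring, which moved the median of all genes to -0.05 in DB and -0.08 in K422, 5 rose in K422 and 1 difference was called.

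BACH2, a transcriptional repressor that restrains plasma cell differentiation, showed the largest of these differences. Its values in DB were -0.26, -0.51 and 0.13 with siFOXP1_308 and -0.35, -0.44 and -0.08 with siFOXP1_309, and in K422 1.19, 0.81 and 0.59, and 0.55, 0.48 and 0.51. The arrays did not overlap, and the difference was 0.94 (adjusted p 0.00349, and 0.0127 with the replicate block). MYBL1, the A-MYB transcription factor of centroblasts, ran from 0.23 to 0.54 in DB and from 1.03 to 1.16 in K422, a separation of 0.75 (adjusted p 0.00367, and 0.0329 with the block). MME, the membrane peptidase CD10, ran from -0.03 to 0.21 in DB and from 0.50 to 0.83 in K422, again without overlap (difference 0.57, adjusted p 0.00247). IRAG2 (LRMP) had medians of -0.05 and 0.69 and GCET2 (GCSAM), an adaptor of germinal centre B cells, of 0.16 and 0.62, and both overlapped between the lines (differences 0.64 and 0.63, adjusted p 0.0191 and 0.00745). S1PR2, the receptor that keeps B cells in germinal centres, averaged 0.45 ± 0.21 in DB, under the limit, and 0.77 ± 0.18 in K422, and its difference of 0.33 was below the limit for a call. BCL6, the defining repressor of the germinal centre, averaged -0.02 and 0.11 and was called in neither line.

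**Figure D4:**
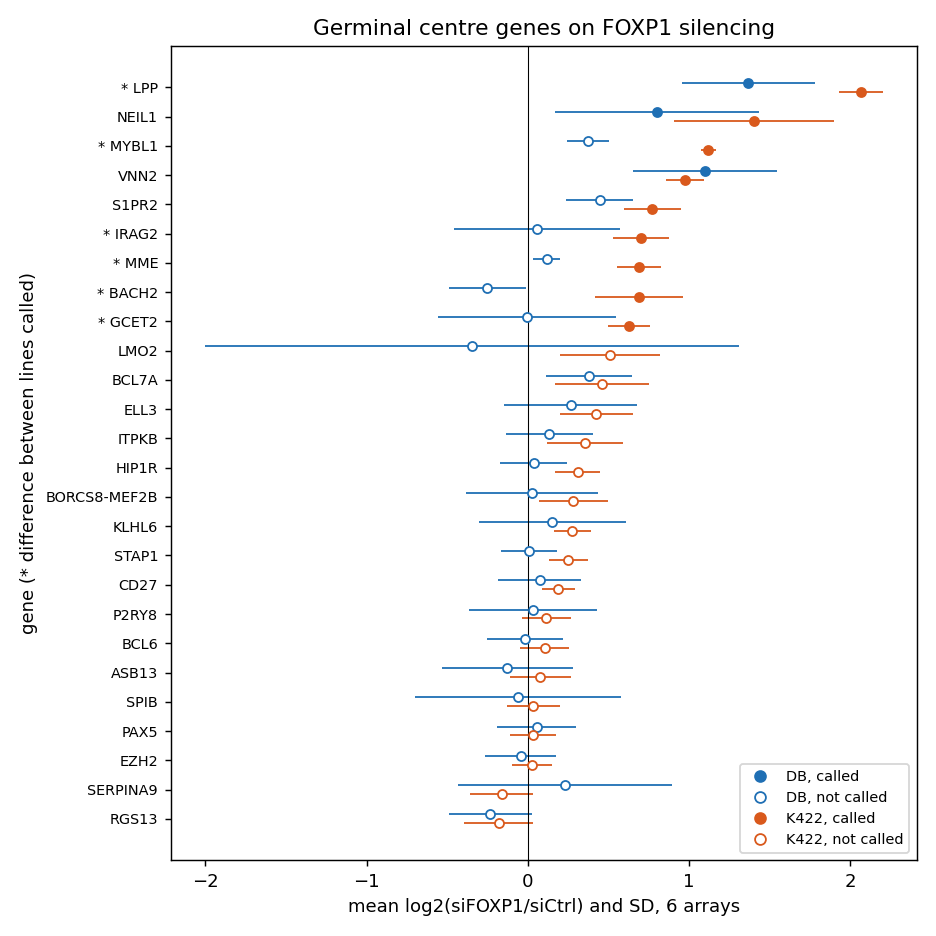
Mean log2(siFOXP1/siCtrl) ± SD over 6 arrays for the 26 tested germinal centre genes in DB and K422. Filled symbols are called in that line and an asterisk marks a called difference, so 9 genes are filled for K422 and 3 for DB.

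Of 16 genes of activated B cells and plasmablasts tested, 3 rose in K422 (against 2.28% of all tested genes) and none was called in DB by limma or by the methods' t-test (4 higher and 3 lower at an unadjusted limma p below 0.05), with list medians of 0.18 and 0.03. JCHAIN, the joining chain of secreted IgM, averaged 0.44 ± 0.56 in DB and 0.94 ± 0.20 in K422, and without DB replicate 3 it rose in DB too (0.69, adjusted p 0.000242). MZB1, a chaperone of antibody secretion, averaged 0.19 ± 0.29 and 0.61 ± 0.18, and SH3BP5, an inhibitor of BTK, 0.13 ± 0.05 and 0.60 ± 0.34. SH3BP5 was 0.49 in K422 without K422 replicate 3, below the limit. No difference of a list member was called by either tool (6 higher and 2 lower in K422 at an unadjusted p below 0.05). Without DB replicate 1 those of JCHAIN (0.76) and MZB1 (0.53) passed. With normexp and loess 1 list member was called higher in K422 and 1 difference was called, higher in K422. These calls numbered 136 and 97 over all tested genes. With normexp and median centring no member was called higher in K422 and 1 was called lower in DB.

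MHC class II genes, which present peptides to CD4+ T cells, had list medians of -0.12 in DB and -0.09 in K422 over 14 genes. By limma and by the methods' t-test none rose in either line (1 in DB and 2 in K422 at an unadjusted limma p below 0.05), and HLA-DQA2 fell in DB (-0.50, adjusted p 0.0107), which was lost with the replicate block (adjusted p 0.0523) and without DB replicate 1 or 2 (adjusted p 0.0590 and 0.0768). The list median on single arrays of DB ran from -0.57 (siFOXP1_309 replicate 2) to 0.24 (siFOXP1_309 replicate 3), wider than the range of -0.25 to 0.02 in K422. CD74, the invariant chain, averaged 0.29 ± 0.10 and 0.19 ± 0.21, against 0.95 in HBL-1 and 0.73 in OCI-Ly3. HIP1R, an endocytic adaptor that the study names as a FOXP1 target, averaged 0.04 ± 0.21 in DB and 0.31 ± 0.14 in K422, both under the limit, against 1.07 and 0.55 in HBL-1 and OCI-Ly3.

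Of 19 migration and adhesion genes tested, 3 fell in both lines (0.225% of all tested genes did) and no other fell in either. In this list limma called no rise (3 in DB and 4 in K422 at an unadjusted p below 0.05). The 3 were ITGA4, described above, ITGB2, the beta-2 integrin chain of LFA-1 (-0.55 ± 0.47 in DB and -0.57 ± 0.13 in K422), and the chemokine CCL3 (-0.53 ± 0.55 and -0.87 ± 0.34). ITGB2 was -0.39 in DB without DB replicate 1 and -0.44 without DB replicate 2, and CCL3 was -0.19 without DB replicate 2 (adjusted p 0.234). The list medians were -0.08 in both lines. No fall of a list member in DB was called by the methods' t-test (3 in K422) or with normexp and loess (2 in K422), so no shared fall remained there.

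Signalling and survival genes differed singly. PIK3R1, the regulatory subunit of PI3-kinase, ran from -0.19 to 0.00 in DB and rose in K422, from 0.23 to 0.68 (mean 0.51, and 0.43 without K422 replicate 1), with a difference of 0.59 (adjusted p 5.52e-05), and RASGRP3, a Ras activator downstream of the B-cell receptor, averaged -0.22 and 0.39 (difference 0.61, adjusted p 0.000670). These were the 2 called differences among 28 B-cell receptor genes (3.04% of all tested genes differed). BMF, a BH3-only activator of apoptosis, averaged 0.15 ± 0.53 in DB and 1.38 ± 0.45 in K422 (difference 1.24, adjusted p 0.00104), and 3 of 6 K422 arrays had its siCtrl channel well above background. BCL2L1, which encodes the anti-apoptotic BCL-XL, and the BH3-only gene BBC3 also rose in K422 (0.58 and 0.52), so that 3 of 16 BCL2 family genes rose there (2.28% of all tested genes did) and none in DB (1.42% of all, and 6 of the list at an unadjusted limma p below 0.05). Left-out replicates brought BBC3 to 0.46 (K422 replicate 1) and BCL2L1 just under the limit (K422 replicate 3). With normexp and loess the differences of PIK3R1 (0.47), RASGRP3 (0.46) and BMF (0.26) were below the limit. With normexp, followed by loess or by median centring, none of the 16 BCL2 family genes was called higher in K422. Of 20 p53 targets, BTG2 rose in DB (0.65 ± 0.31) and GADD45A, TP53INP1 and BBC3 rose in K422. Of all tested genes 1.42% rose in DB and 2.28% in K422. With normexp and loess 1 p53 target was called higher in K422. GADD45A, a growth arrest gene, had no overlap between the lines (0.12 ± 0.17 and 0.73 ± 0.22, difference 0.62, adjusted p 0.000118). The call of TP53INP1 in K422 was lost without K422 replicate 1 (0.44) or replicate 2 (0.51, adjusted p 0.0587). RELB, the NF-kB subunit, differed by 0.53 (adjusted p 0.0103). This was lost without DB replicate 2 (0.33) or K422 replicate 2 (0.48) and with normexp and loess (0.46). It was the sole difference among 17 NF-kB genes (3.04% of all tested genes differed). Of the 17, IER3 fell in DB (-0.52 ± 0.60), where 0.675% of all tested genes fell. IER3 was -0.19 without DB replicate 2 and just under the limit without DB replicate 3.

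Wnt genes moved in both directions. Of 17 tested, the receptors FZD1 (0.66 ± 0.19) and FZD2 (0.60 ± 0.23) rose in K422, while FZD5 (-0.65 ± 0.32) and the ligands WNT3 (-0.64 ± 0.45) and WNT10A (-0.52 ± 0.32) fell there. Without K422 replicate 1 WNT10A was -0.37, below the limit. None of these 5 was called in DB. Of all tested genes 2.28% rose and 2.01% fell in K422, and 3.04% differed between the lines. The difference was called for FZD2 (0.53, adjusted p 0.000380), FZD5 (-0.75, adjusted p 0.00238) and WNT3 (-0.57, adjusted p 0.0182). That of WNT3 was lost with the replicate block (adjusted p 0.104), and without DB replicate 2 (adjusted p 0.0730) or K422 replicate 3 (-0.44), and with normexp and loess FZD5 (-0.44) and WNT3 (-0.06) were below the limit. LRP5, the Wnt co-receptor, rose in DB, where no array had its siCtrl channel well above background, so its rise there was at least 1.10-fold (adjusted p 3.40e-05). In K422 it averaged 0.11, and no difference is given, since the rise in DB is only bounded.

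Among quiescence and FOXO genes, BTG2 and FOXO4 rose and KLF9 (-0.55, adjusted p 0.0152) and CDKN1B fell in DB, and KLF2, a transcription factor of resting lymphocytes, fell in K422 (-0.80 ± 0.16). The call of KLF9, a Krüppel-like factor, was lost with the replicate block (adjusted p 0.0501) and without DB replicate 2 (-0.26). In DB KLF2 ran from -1.13 to 1.53, and without DB replicate 3 it fell there too (-0.51, adjusted p 0.00319). CDKN1B, the cell cycle inhibitor p27, was -0.56 ± 0.72 in DB and -0.15 without DB replicate 2, and the related inhibitor gene CDKN2C rose in K422 (0.56 ± 0.16, and 0.49 without K422 replicate 1). These were the only calls among 34 cell cycle genes. For each list of this paragraph, the shares over all tested genes were 1.42% higher and 0.675% lower in DB. In K422 they were 2.28% and 2.01%, and 0.431% rose in both lines. Of 21 endocytosis and cytoskeleton genes, AP2A1, the alpha subunit of the AP-2 clathrin adaptor, rose in both lines (0.65 ± 0.17 and 0.64 ± 0.19, difference -0.01, adjusted p 0.976), LPP rose in both and more in K422, and FLNA (filamin A) rose in DB (0.57 ± 0.46, and 0.42 without DB replicate 1). With normexp and loess LPP alone of this list was called higher in either line, so the calls of AP2A1 and FLNA were lost. The DB falls of KLF9 and CDKN1B and the K422 rise of CDKN2C were lost too. With that setting 34 of all tested genes were lower in DB and 136 higher in K422. Of 20 interferon-stimulated genes IFI35 rose in K422 (0.55 ± 0.31), and the list medians were 0.05 in DB and 0.10 in K422. With siFOXP1_308 alone the K422 median was 0.36, with 19 of 20 genes positive and 4 called higher, and 3 were called higher in DB. Of all 15997 tested genes 513 were called higher in K422 and 384 in DB with that siRNA. With siFOXP1_309 alone the K422 median was -0.09, with 6 positive, none called higher and 1 called lower. This split between the siRNAs was not tested. Among markers of other cell types, CSF1R, the receptor of myeloid growth factor CSF1, fell in K422 (-0.99 ± 0.63). Its difference was called too (1.83% of all tested genes were lower in K422). Of the 3 myeloid markers tested 2 were positive in K422. Neither call of CSF1R was kept with normexp and loess. Of the B-lineage markers POU2AF1, a B-cell coactivator, rose in DB (0.61 ± 0.13).

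The integrated stress response separated the experiments of DB more than the lines. These genes are induced through ATF4 when amino acids are short or the endoplasmic reticulum is stressed. Their list median over 20 genes was -0.03, -1.75 and 0.52 in DB with siFOXP1_308 and -0.09, -1.17 and 0.17 with siFOXP1_309, and between -0.05 and 0.13 on the arrays of K422. Replicate 2 of DB was low and replicate 3 high with both siRNAs. Both arrays of an experiment name 1 control RNA, whose part in these values was not tested. Over all 6 arrays the median was -0.39 in DB, where 1 of 20 genes was positive, and 0.02 in K422, and limma called no gene in either line (8 lower in DB and 3 higher in K422 at an unadjusted p below 0.05). Leaving out DB replicate 2 gave a DB median of 0.19 with 17 genes positive and no called difference. Leaving out DB replicate 3 gave a DB median of -0.77, with 13 genes lower in DB and 9 called differences, all higher in K422. Of all 15997 tested genes 315 were then lower in DB, and 544 differences were higher in K422.

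CHAC1, a glutathione-degrading enzyme induced by ATF4 and named by the study, was, like the list, lowest in DB replicate 2 with both siRNAs. It was 0.17, -3.63 and 0.55 in DB with siFOXP1_308 and 0.10, -1.87 and 0.04 with siFOXP1_309. In K422 it ran from 0.29 to 0.69, above the list medians there, which lay between -0.05 and 0.13. The difference of 1.20 between means of -0.77 ± 1.64 and 0.43 ± 0.15 did not pass the test (adjusted p 0.152). When DB replicate 3 was left out CHAC1 fell in DB (-1.31, adjusted p 0.0219) and differed from K422 by 1.73 (adjusted p 0.0233). DDIT3 (CHOP) and CEBPB, transcription factors of the same response, ran from -3.08 to 0.63 and from -2.96 to 1.39 in DB.

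Sterol synthesis genes showed a related split. Their list median over 23 genes was 0.12, 0.31 and -0.72 in DB with siFOXP1_308 and 0.28, 0.24 and -0.08 with siFOXP1_309, and between -0.26 and -0.04 in K422. Only replicate 3 of DB was negative. The difference of LSS, lanosterol synthase, was called (-0.52, adjusted p 0.0385), and it was lost with the replicate block (adjusted p 0.0880) and without DB replicate 1 (-0.38), DB replicate 2 (-0.36) or any 1 of the K422 replicates (adjusted p from 0.0817 to 0.149). With DB replicate 3 left out the DB median was 0.25, 3 genes rose in DB and 4 differences were called. Of all 15997 tested genes 384 then rose in DB, and 544 differences were higher and 657 lower in K422.

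**Figure D5:**
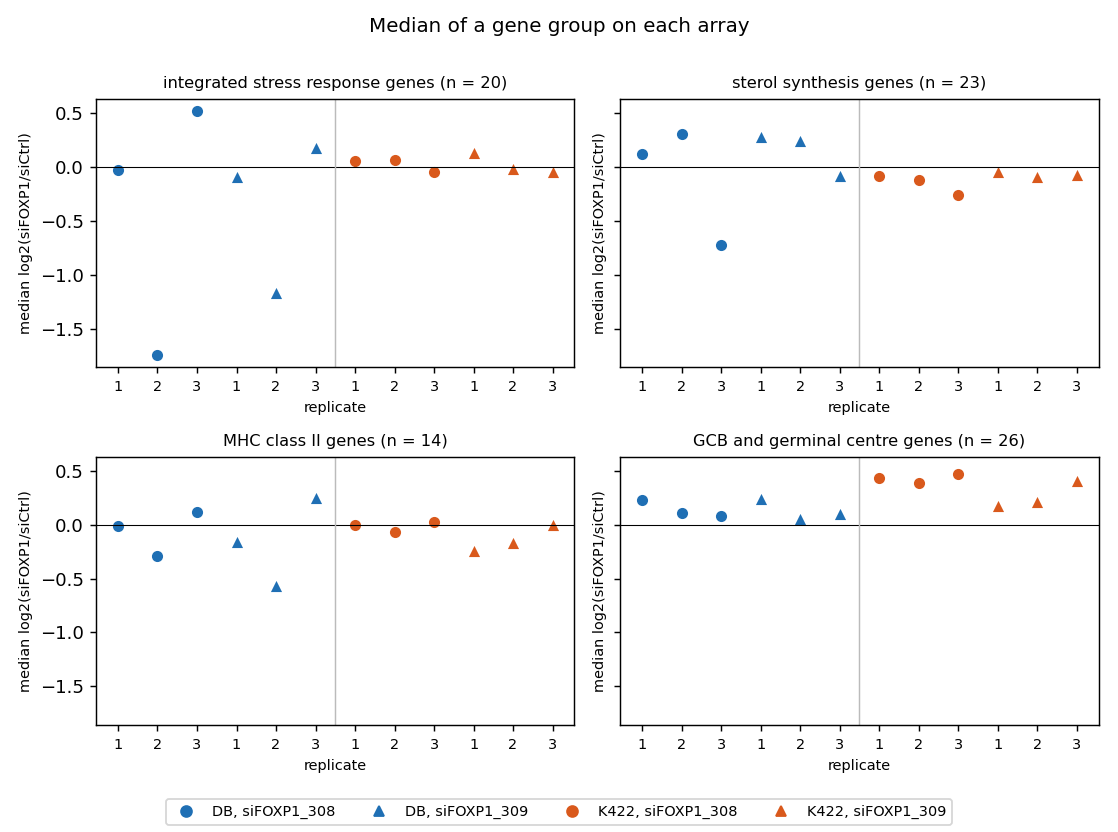
Median log2(siFOXP1/siCtrl) on each array for the integrated stress response (20 genes), sterol synthesis (23), MHC class II (14) and germinal centre (26) lists, by replicate of DB and K422 (circles siFOXP1_308, triangles siFOXP1_309). The stress list falls to -1.75 and -1.17 in DB replicate 2, and the germinal centre list is above 0 on every array.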

How the data were processed

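Each array holds RNA of siFOXP1 cells (Cy3) and siCtrl cells (Cy5) of 1 line. The authors scanned the arrays and deposited Feature Extraction output (version 10.5.1.1 for DB, 10.7.3.1 for K422). The deposited files give the raw intensity and local background of each channel, used here for normexp, and a processed intensity per channel. For the processed intensity and the log10 ratio of red over green, the authors' scanner software had subtracted background and applied its linear and loess dye normalization. They also deposited a matrix that tracks log2 of green over red (r from 0.804 to 0.998 over the 24 arrays) and is not median-centred, used here only as an alternative. Per the labels the 3 replicates are independent experiments, which leaves unknown whether both siRNA arrays of an experiment shared control RNA.

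The deposited log10 ratio was rescaled to log2 and its sign reversed, giving log2(siFOXP1/siCtrl). An array has 45015 spots. After removal of 1639 control spots and of spots with an outlier mark, replicate spots were averaged to 41000 probes, and each gene name was represented by the probe with the highest mean signal. Probe coordinates are hg18, as in the files. Of 17397 names with a RefSeq accession, 16803 were matched to the RefSeq gene table and 2442 symbols were updated.

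In limma 3.58.1 (R 4.3.3) all 24 arrays entered one model with 8 means, one for each line and siRNA. A line's value was the mean of its 2 siRNAs, and the difference was K422 minus DB. Moderated variances and Benjamini-Hochberg adjustment used the 15997 tested genes, of which 15994 had a fitted value in both lines. On simulated data for these genes, 91.5% of 200 differences and 97% of 200 shared changes of log2 1 were recovered, with 3 and 0 false calls. The simulated noise was independent between arrays, whereas real arrays of 1 replicate number correlated (0.414 in the blocked fit). These figures therefore do not give the rate of false calls on the real arrays. Python 3.11.15 with pandas 2.3.3 made the summaries.

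Named genes are FOXP1 and those the study names (LPP, NEIL1, VNN2, CHAC1, HIP1R, CD74), the 10 highest and 10 lowest shared genes with 1 sign on all 12 arrays, the 10 largest differences in each direction, all genes called in opposite directions, and up to 4 called members per list. The shared and differing genes had to be RefSeq-named and well above background in both channels on at least 4 of 6 arrays of each line, which only 8 of the shared falls met. Others (such as KLF9, WNT10A, BCL6, S1PR2, DDIT3, CEBPB, RASSF6, JAML, POU2AF1 and CSF1R) were named after their values were seen. Members, lists and rules were chosen with earlier results of these data known.

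The replicate number was taken to pair arrays: deviations from the group means correlated at 0.562, 0.370 and 0.618 in DB and 0.286, 0.285 and 0.410 in K422 over 15997 genes, each array best with its own number. Alternatives were normexp (offset 50) followed by loess or median centring, the matrix values, no or a stricter filter on dim probes, retained outlier spots, averaged probes, a replicate or slide block, siRNAs averaged per replicate, the 12 arrays alone, the methods' t-test, a log2 limit of 1, single siRNAs, and omission of each replicate. No columns of the authors' own comparisons were used. Some members of the gene lists are counted in the lists and not reported here by name.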

Additional observations from a re-analysis of the deposited data

Results flagged for a closer look

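Of 22 groups of 6 arrays checked, 5 held an array far from its fellows, where chance alone gives about 1 in 20. The spread over spots was 0.565 on DB siFOXP1_308 replicate 3, against 0.385 to 0.450 on the other DB arrays. The same array gave 2.05 for NEIL1, against 0.298 to 0.813, and 1.91 for VNN2, against 0.704 to 1.16. In K422 the spread was 0.514 on siFOXP1_308 replicate 1, against 0.410 to 0.447. LRRC32 was -3.01 on K422 siFOXP1_308 replicate 3, against -1.50 to -0.823 on the other K422 arrays.

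The response of 3 entries was called in opposite directions in the 2 lines, with the K422 minus DB difference itself past the limma test. The differences were -2.51 for LRRC32, 1.72 for INSM2 and -1.11 for A_24_P136415.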

How the results depend on the processing

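Counts are given as higher and lower in DB, in K422, in both lines and in the K422 minus DB difference, and then as entries of opposite direction (first higher in DB, then higher in K422). They were 227 and 108, 365 and 321, 69 and 36, 194 and 293, and 2 and 1 in the text. Normexp and loess gave 47 and 34, 136 and 87, 16 and 4, 97 and 88, and 0 and 0. Normexp and median centring gave 11 and 54, 64 and 459, 7 and 27, 16 and 20, and 0 and 0, and turned BBC3 in K422 to -0.14 and the difference of WNT3 to 0.026. Without a filter on dim probes they were 402 and 250, 706 and 632, 79 and 89, 272 and 352, and 6 and 1. With both channels well above background DB had 139 higher, both lines 19 lower, and 0 were higher in DB and lower in K422. A log2 limit of 1 gave 17 and 19, 49 and 37, 11 and 10, 40 and 33, and 0 and 0.

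With the replicate block, the pairing by experiment, the difference was 114 and 161 and opposite entries 1 and 0, and 204 of 214 values of named genes kept their side of the threshold. The slide block gave 21 lower in both lines, differences of 71 and 106, and 0 of the second opposite kind. The 12 arrays alone gave 115 and 179, and 1 and 0, and siRNAs averaged per replicate 87 and 119, and 1 and 0. The methods' t-test gave 54 and 22 in DB, 26 and 13 in both lines, 91 and 124 for the difference, and 0 and 0, and with it FOXP1 in DB, at -2.00, had an adjusted p of 0.0526. With siFOXP1_308 alone DB had 384 and 237, K422 513 and 454, and both lines 109 and 62. The difference had 153 lower, and opposite entries were 4 and 2. With siFOXP1_309 alone, which lowered FOXP1 more, DB had 182 and 133, K422 259 and 242, and both lines 23 lower. The difference was then 93 and 113, and opposite entries 3 and 0.

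When 1 replicate was left out, DB had 219 to 384 higher and 106 to 315 lower, K422 324 to 456 and 281 to 397, both lines 52 to 78 and 32 to 39, the difference 136 to 544 and 173 to 657, and opposite entries 1 to 10 and 0 to 14. FOXP1 ran from -2.08 to -1.92 in DB and from -1.38 to -1.32 in K422. The highest counts in DB and in the difference came without DB replicate 3. Apart from the construction of each setting (fewer arrays, fewer genes, another limit) the cause of these shifts was not tested. Dim probes and 6 arrays per line from 3 experiments limit what can be called.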
